A study of Homo sapiens with 6 samples.

Results

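The genes that encode voltage-gated calcium channels, voltage-gated sodium channels and potassium channels were followed after depletion of the RNA- and DNA-binding protein SFPQ. Members were the protein-coding genes whose symbol starts with KCN or CACNA, or consists of SCN, digits and A or B. Of the 60664 gene rows of the count matrix, 124 met this rule: 96 potassium, 14 calcium and 14 sodium channel genes. With at least 10 reads over all libraries required, 112 of the 124 were tested; the other 12 held at most 7 reads in total, and KCNK15 and KCNK17 held none.

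Ion channels are membrane proteins built from a pore-forming alpha subunit and, in many cases, auxiliary subunits that set how much channel reaches the cell surface and how it opens and closes. Voltage-gated sodium and calcium channels let cations in when the membrane depolarises, and potassium channels let potassium out and bring the membrane back towards rest. In cells that do not fire action potentials, such as bone tumour cells, potassium channels set the resting membrane potential, and calcium channels admit calcium that acts as an intracellular signal. Many channel genes carry long introns and span far more DNA than the mRNA they encode.

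The cells were U-2 OS, a human osteosarcoma line described in the labels as polyploid, transfected with siRNA at 30 nM. Polyadenylated RNA from 3 biological replicates given a control siRNA (siControl) was compared with RNA from 3 replicates given siRNA against SFPQ (siSFPQ); all 6 samples come from the same line, and siRNA lowers the mRNA rather than removing the gene. Between 43469321 and 47119203 reads were assigned to genes in each library, so that 3 reads corresponded to 0.0637 to 0.069 CPM (read counts scaled to a common library total). SFPQ itself had 22338, 23139 and 21753 reads in siControl and 3140, 3863 and 3151 in siSFPQ, a log2 fold change of -2.73 ± 0.05 (SE; adjusted p = 6.33e-30, edgeR).

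The mesenchymal and osteoblast markers checked against the cell label summed to 7750 to 8240 CPM in siControl and 6950 to 7110 CPM in siSFPQ. VIM, COL1A1, SPARC, FN1, THY1 and RUNX2 were well detected, whereas COL1A2 averaged 0.964 CPM and ALPL 3.43 CPM. Markers of other cell types also moved: the summed epithelial markers went from 321 to 335 CPM in siControl to 749 to 812 CPM in siSFPQ, with 4 of 5 genes higher, and the 6 neuronal markers went from 127 to 132 CPM to 150 to 158 CPM, with 2 genes higher and 3 lower (RBFOX3, SYT1 and SNAP25). Muscle markers, with MYOG at 0, summed to 1.19 to 1.71 CPM in siControl and 2.74 to 2.99 CPM in siSFPQ (3 of 5 tested higher and 1 lower), and blood markers to 0.607 to 0.94 and 0.263 to 0.527 CPM (1 of 2 tested lower). Their part in the channel gene results was not tested. In bulk RNA, fewer cells expressing a gene and less RNA per cell cannot be told apart.

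More channel genes fell than rose after SFPQ depletion. At an adjusted p under 0.05, 46 of the 112 tested members fell (41.1%, against 22.1% of all 29022 genes tested and 30.8% of the other protein-coding genes) and 20 rose (17.9%, against 22.4% of all genes tested and 28.1% of the other protein-coding genes), while 46 did neither. With a log2 fold change beyond 1.5 also required, 16 fell (14.3%, against 4.77% of all genes tested) and 3 rose (2.68%, against 5.54%). The 3 siSFPQ libraries lay below all 3 siControl libraries for 48 members (background 25.4%) and above all of them for 23 (background 26.9%). The median log2 fold change was -0.31 over the members, 0.02 over all genes tested and -0.00 over the other protein-coding genes. In the 64 members whose exons overlap no other gene's, the excess of falls at an adjusted p under 0.05 was much smaller: 29.7% fell and 26.6% rose. Past both thresholds it stayed: 12.5% of the 64 fell and 3.12% rose, near the 14.3% and 2.68% of all tested members. Of the 66 members called at an adjusted p under 0.05, 19 lost the call (15 falls and 4 rises) when some 1 library was left out. The number past both thresholds upwards depended on the libraries included: it was 5 without siControl replicate 2, without siControl replicate 3 or without siSFPQ replicate 2.

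Among the 58 members with a mean of at least 1 CPM, 32 fell (55.2%) and 15 rose (25.9%), and all 10 past both thresholds were falls (17.2%). Among other protein-coding genes at this level, 36.4% fell, 31.4% rose, and 4.27% fell and 1.36% rose past both thresholds. The 54 members below 1 CPM had 14 falls and 5 rises, and the 3 members past both thresholds upwards (KCNJ13, KCNA7 and KCNV2) all belonged to them. These shares were 25.9% and 9.26%, against 10.2% and 15.9% of other protein-coding genes below 1 CPM. Reads of all members together made up 0.0803% to 0.0842% of each siControl library and 0.0696% to 0.0721% of each siSFPQ library.

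The gene with the largest fall was CACNA2D1, which encodes the alpha2delta-1 auxiliary subunit that carries calcium channels to the cell surface and binds gabapentin. The gene with the largest rise was KCNJ13, which encodes the inward rectifier Kir7.1. Their promoters are shown because these genes mark the ends of the range and differ in base composition. The lines give the 250 bases before the RefSeq start of each gene on GRCh38.p14, read 5′ to 3′ on the minus strand that both genes occupy, with every CG dinucleotide in capitals.
CACNA2D1, chr7:82443957-82444206: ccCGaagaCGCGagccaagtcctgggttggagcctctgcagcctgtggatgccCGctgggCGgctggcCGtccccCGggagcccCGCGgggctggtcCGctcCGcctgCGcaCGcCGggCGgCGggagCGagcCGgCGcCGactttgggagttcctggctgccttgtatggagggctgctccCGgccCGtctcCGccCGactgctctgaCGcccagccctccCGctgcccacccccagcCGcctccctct
KCNJ13, chr2:232776566-232776815: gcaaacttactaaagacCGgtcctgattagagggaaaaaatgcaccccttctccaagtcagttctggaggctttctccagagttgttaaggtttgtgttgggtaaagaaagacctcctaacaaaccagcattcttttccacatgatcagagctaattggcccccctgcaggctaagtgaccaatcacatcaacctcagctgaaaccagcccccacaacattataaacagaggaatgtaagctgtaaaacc
The CACNA2D1 promoter held 27 CG dinucleotides and the KCNJ13 promoter 1. Of the 35116 promoters of this length in the RefSeq table, 17.7% held at least as many as CACNA2D1 and 14.7% held at most as many as KCNJ13, with a median of 11. RefSeq promoters were matched for 81 of the 112 tested members, and no comparison of promoters between members was made.

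CACNA2D1 (chr7:81946444-82443956, a span of 498 kb with introns) had 1875, 2178 and 1982 reads in siControl and 100, 117 and 92 in siSFPQ. Every siSFPQ library lay far below every siControl library. The log2 fold change was -4.29 ± 0.09 (SE; adjusted p = 1.15e-28), a 19.6-fold lower level, and it lay between -4.39 and -4.20 with any 1 library left out. CACNA2D2, which encodes the related alpha2delta-2 subunit (142 kb), had 219, 264 and 215 reads against 67, 40 and 59 (log2 fold change -2.07 ± 0.17, adjusted p = 2.15e-12). CACNA2D4 (127 kb), known for its role in the photoreceptor synapse, went the other way: it had 548, 463 and 536 reads in siControl and 1142, 1045 and 1117 in siSFPQ, with no overlap (log2 fold change 1.09 ± 0.08, adjusted p = 4.33e-14). The fourth member, CACNA2D3, spans 952 kb, averaged 0.368 CPM and did not pass the test (log2 fold change -0.14 ± 0.43).

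The pore-forming alpha1 subunits of calcium channels also fell in most cases: 6 of 10 fell, 1 rose and the median log2 fold change was -0.84. CACNA1C, which encodes the L-type channel Cav1.2 of heart and smooth muscle (chr12:1970772-2697950, 727 kb), had 557, 491 and 378 reads in siControl and 102, 142 and 117 in siSFPQ. The groups were well apart although the siControl libraries differed among themselves, and the log2 fold change was -1.99 ± 0.13 (adjusted p = 1.13e-14). CACNA1D, the L-type channel Cav1.3 (485 kb), had 129, 145 and 125 reads against 63, 64 and 49 (-1.18 ± 0.18, adjusted p = 9.30e-07).

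Of the low-voltage-activated T-type channels, CACNA1H (Cav3.2, 68.7 kb) had the highest siControl level of the alpha1 genes per length, at 199 normalised reads per kb of exon. It had 1726, 1725 and 1691 reads in siControl and 964, 981 and 992 in siSFPQ (log2 fold change -0.81 ± 0.05, adjusted p = 1.69e-14), with very close replicates and no overlap. CACNA1G (Cav3.1, 66.8 kb) fell by 1.12 on the log2 scale, and CACNA1I (Cav3.3, 119 kb) was the one alpha1 gene to rise, with 47, 110 and 78 reads against 116, 93 and 140, groups that overlapped (0.57 ± 0.21, adjusted p = 0.0282). The CACNA1I call was lost without siControl replicate 1 (adjusted p = 0.221), siControl replicate 3 (0.0641), siSFPQ replicate 1 (0.0931) or siSFPQ replicate 3 (0.181). The P/Q-type and N-type channel genes of presynaptic terminals, CACNA1A (427 kb) and CACNA1B (247 kb), fell by 0.87 and 0.68; CACNA1B lost the call without siSFPQ replicate 1 (adjusted p = 0.0749) or siSFPQ replicate 2 (0.0649). CACNA1E, CACNA1F and CACNA1S did not pass the test, and all averaged under 1 CPM.

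Voltage-gated potassium (Kv) alpha subunits formed the largest family, with 37 of 40 genes tested, 17 falls, 7 rises and a median log2 fold change of -0.53. KCND3, which encodes the rapidly inactivating channel Kv4.3 (chr1:111770662-111989668, 219 kb), had 365, 343 and 311 reads in siControl and 64, 81 and 79 in siSFPQ (-2.19 ± 0.13, adjusted p = 8.65e-16). The siSFPQ libraries were about alike and all far below siControl. One end of KCND3 overlaps exons of DDX20 on the opposite strand, and DDX20 rose slightly (0.20 ± 0.05, adjusted p = 0.000532).

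KCNQ3 and KCNQ5 encode subunits of the M-current channels that damp repetitive firing. KCNQ3 (360 kb) had 701, 751 and 678 reads against 158, 140 and 172 (-2.18 ± 0.10, adjusted p = 3.97e-19), and KCNQ5 (577 kb) had 647, 743 and 729 against 277, 254 and 288 (-1.38 ± 0.09, adjusted p = 7.77e-15). Neither gene's groups overlapped. KCNQ1 averaged under 0.5 CPM and did not pass the test (log2 fold change 0.08 ± 0.50).

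The KCNH genes (the ether-à-go-go family) differed widely among themselves. KCNH3 (19.3 kb) had the highest siControl level of the Kv alpha genes, 307 normalised reads per kb of exon. It had 1421, 1376 and 1344 reads in siControl and 2373, 2403 and 2441 in siSFPQ, with no overlap and narrow spread (0.80 ± 0.05, adjusted p = 1.83e-15); some of its exons overlap those of MCRS1 on the opposite strand. KCNH2, the cardiac hERG channel (33.4 kb), fell by 0.53 on the log2 scale.

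The other measured KCNH falls were all in genes of 387 kb or more. KCNH8 had 108, 76 and 99 reads against 16, 23 and 15 (-2.39 ± 0.26, adjusted p = 1.27e-09), and KCNH5 had 98, 120 and 101 against 32, 36 and 27 (-1.75 ± 0.22, adjusted p = 2.45e-08). KCNH7 and KCNH1, at under 0.5 CPM, had log2 fold changes of -1.69 ± 0.44 and -1.63 ± 0.44 (adjusted p = 0.00187 and 0.00246). The groups did not overlap for any of these genes, but the estimate for KCNH1 ranged from -1.90 to -1.25 with 1 library left out.

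The Shaker-related KCNA genes are short apart from KCNA2, which spans 112 kb, and their changes went both ways. KCNA6 (3.98 kb) had 392, 454 and 401 reads against 150, 183 and 196 (-1.24 ± 0.11, adjusted p = 1.67e-11), KCNA4 (7.30 kb) had 63, 50 and 36 against 12, 23 and 12 (-1.66 ± 0.33, adjusted p = 9.04e-05), and KCNA1 (8.35 kb) fell by 0.85. KCNA2 had 450, 412 and 445 reads in siControl and 475, 478 and 440 in siSFPQ, so that the groups overlapped (0.09 ± 0.09, adjusted p = 0.451). KCNA7 (5.30 kb) rose from 15, 21 and 8 reads to 65, 40 and 42 (1.73 ± 0.35, adjusted p = 9.21e-05).

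Other short Kv genes rose or did not pass the test. KCNF1, a modulatory subunit that is silent on its own (2.29 kb), had 82, 85 and 72 reads against 169, 141 and 143 (0.92 ± 0.16, adjusted p = 1.22e-05). KCNG1, another modulatory subunit (19.5 kb), and KCNC4, of the fast-spiking Kv3 class (72.8 kb), rose by 0.77 and 0.62 on the log2 scale. KCND1, the short relative of KCND3 (10.5 kb), had 487, 410 and 457 reads against 467, 463 and 489, with overlap (0.06 ± 0.09, adjusted p = 0.606). KCNV2, a photoreceptor subunit, had 6, 8 and 2 reads against 14, 20 and 16 (1.61 ± 0.56, adjusted p = 0.0190). Its adjusted p rose to 0.0823 without siControl replicate 3, 0.0956 without siSFPQ replicate 2 and 0.0527 without siSFPQ replicate 3.

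Of the auxiliary subunits of Kv channels, 3 of 10 tested fell (30.0%, near the 30.8% of other protein-coding genes) and none rose (28.1% of other protein-coding genes). The smallest of the 3 falls (log2 fold change -0.30) lost the call when some 1 library was left out (adjusted p up to 0.232). KCNIP1, a calcium-binding partner of Kv4 channels (chr5:170353487-170736632, 383 kb), had 214, 298 and 220 reads in siControl and 41, 38 and 49 in siSFPQ (-2.52 ± 0.17, adjusted p = 2.41e-14), with a gap between the groups. KCNAB2, a cytoplasmic beta subunit (110 kb), had 1406, 1279 and 1290 against 566, 531 and 571 (-1.26 ± 0.07, adjusted p = 6.14e-17); its exons overlap those of NPHP4 on the opposite strand. KCNIP3, which had the highest siControl level of these genes per length (94.8 normalised reads per kb), had 784, 725 and 750 reads against 643, 729 and 663, and did not pass the test (-0.16 ± 0.07, adjusted p = 0.0815). KCNAB1 spans 501 kb and had 8, 32 and 24 reads against 38, 28 and 31, groups that overlapped (0.60 ± 0.37, adjusted p = 0.205).

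The tandem-pore (KCNK) genes encode leak channels that set the resting potential. KCNK1 (TWIK-1, chr1:233614106-233672514, 58.4 kb) had 655 normalised reads per kb in siControl, the highest of its family. Its reads went from 2211, 2405 and 2309 to 611, 724 and 610, far apart (-1.84 ± 0.06, adjusted p = 7.70e-23). KCNK10 (TREK-2, a mechanosensitive leak channel, chr14:88180103-88326907, 147 kb) had 152, 262 and 236 reads against 51, 47 and 61 (-2.03 ± 0.18, adjusted p = 2.62e-11). KCNK3 (TASK-1, an acid-sensitive channel, 40.7 kb) rose, with 40, 23 and 40 reads against 98, 78 and 100 and no overlap (1.42 ± 0.23, adjusted p = 4.87e-06). KCNK5 (TASK-2, 40.5 kb) had 572, 686 and 619 reads against 577, 684 and 691, fully overlapping groups (0.05 ± 0.08, adjusted p = 0.664). Of the 11 tested, 5 fell and 2 rose.

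Among calcium- and sodium-activated potassium channels, 4 of 11 tested genes fell (36.4%, against 30.8% of other protein-coding genes) and 1 rose (9.09%, against 28.1%). KCNMA1, the pore of the large-conductance BK channel (chr10:76869601-77638369, 769 kb), had 1550, 1449 and 1471 reads in siControl and 564, 549 and 617 in siSFPQ, with no overlap (-1.37 ± 0.07, adjusted p = 1.59e-18). KCNT2, a sodium-activated channel (383 kb), had 40, 70 and 53 reads against 7, 17 and 6 (-2.43 ± 0.37, adjusted p = 1.13e-06). Its relative KCNT1 (93.3 kb) rose, with 16, 35 and 47 reads against 65, 72 and 68 (1.06 ± 0.27, adjusted p = 0.00156).

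KCNN4, the intermediate-conductance channel of blood and proliferating cells (14.4 kb), was the most abundant member per length, with 1220 normalised reads per kb of exon in siControl. It had 3732, 3685 and 3995 reads in siControl and 3823, 3844 and 4187 in siSFPQ, so that the groups overlapped (0.05 ± 0.04, adjusted p = 0.386). KCNN1, a small-conductance relative (48.8 kb), had 509, 456 and 456 reads against 371, 432 and 492, and did not pass the test either (-0.14 ± 0.09, adjusted p = 0.235).

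The inward rectifiers (KCNJ) had 4 falls and 3 rises among 15 tested genes, and most were scarce: their median level was 0.467 CPM. All 4 falls (KCNJ2, KCNJ3, KCNJ4 and KCNJ16) lost the call when some 1 library was left out (adjusted p up to 0.17). The 3 rises (KCNJ10, KCNJ11 and KCNJ13) kept the call with any 1 library left out. KCNJ13 (chr2:232765802-232776565, 10.8 kb) had 0, 2 and 3 reads in siControl and 66, 56 and 67 in siSFPQ. Every siSFPQ library held many times the reads of any siControl library. The log2 fold change was 5.14 ± 0.47 (adjusted p = 4.31e-11), and the ratio of summed reads scaled by library size was 37.7, with a 95% interval of 15.9 to 117 that covers counting error only. The gene lies inside GIGYF2 (chr2:232697299-232860605) on the opposite strand, shares exonic bases with it, and is also overlapped on its own strand by a non-coding gene. GIGYF2 had 3629, 3914 and 3522 reads against 3209, 3539 and 3229 (-0.15 ± 0.04, adjusted p = 0.00505), the opposite direction. The library kit was stranded, but the strand setting of the counting is not given in the sources used here, and which strand the KCNJ13 reads came from was not tested. In siControl, KCNJ13 held 0 to 3 reads beside the 3522 to 3914 of GIGYF2.

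KCNJ8, the pore of vascular ATP-sensitive potassium channels (10.6 kb), was the inward rectifier with the highest siControl level, 96.7 normalised reads per kb. It had 233, 237 and 257 reads against 314, 231 and 261, with overlap (0.15 ± 0.12, adjusted p = 0.348). KCNJ11, the pore of the pancreatic form (24.2 kb), rose from 97, 98 and 128 reads to 162, 183 and 247 (0.87 ± 0.16, adjusted p = 2.06e-05).

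The sodium channel genes divided by subunit type. All 4 beta subunit genes, which encode small membrane proteins that adjust gating and cell adhesion, rose, and their spans were 9.98 to 26.1 kb. SCN4B had 544, 569 and 529 reads in siControl and 1009, 1004 and 1118 in siSFPQ, well apart (0.93 ± 0.07, adjusted p = 5.18e-13). SCN3B and SCN2B rose by 0.60 and 0.34 on the log2 scale. The siSFPQ libraries lay above all siControl libraries for all 4.

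Of the 10 pore-forming sodium alpha genes, 5 fell, 1 rose and none passed the fold threshold. SCN9A, the nociceptor channel Nav1.7 (181 kb), had 226, 202 and 192 reads against 92, 107 and 99 (-1.06 ± 0.14, adjusted p = 8.56e-08), the largest change among the sodium alpha genes that fell. SCN2A and SCN8A, brain channels of 197 and 223 kb, fell by only 0.19 and 0.18. SCN2A lost the call with any library but siControl replicate 2 left out (adjusted p from 0.0586 to 0.162), and SCN8A without siControl replicate 2 (0.102) or siSFPQ replicate 1 (0.118). SCN4A, the skeletal muscle channel and the shortest alpha gene at 34.4 kb, rose from 4, 8 and 10 reads to 30, 15 and 16 (1.46 ± 0.51, adjusted p = 0.0184); the call was lost without siControl replicate 1 (0.0582) or siSFPQ replicate 1 (0.198).

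Between the 3 ion classes, the median log2 fold change was -0.31 for the 84 potassium genes, -0.84 for the 14 calcium genes and -0.17 for the 14 sodium genes. In single siSFPQ libraries, taken against the siControl mean, the median was -0.25, -0.35 and -0.42 for potassium and -0.87, -0.82 and -0.93 for calcium, all below the siControl libraries. For sodium it was 0.12, -0.19 and 0.07, on both sides of 0. The sodium median had no stable direction: it was 0.14 without siControl replicate 2 and -0.01 without siSFPQ replicate 2. In members without exon overlap the potassium, calcium and sodium medians were 0.05, -0.35 and 0.47, so that the potassium and sodium medians changed sign. These medians rest on smaller sets with a different make-up. The calcium value was that of CACNA1F, which averaged only 0.0581 CPM, and the sodium set kept all 4 beta genes, which rose.

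The change was related to the length of DNA that a gene spans. Of the 40 tested members under 30 kb, 13 rose and 7 fell, with a median log2 fold change of 0.19. From 30 to 100 kb, 5 of 22 rose and 9 fell (median -0.32), and from 100 to 300 kb, 2 of 28 rose and 15 fell (median -0.61). Over 300 kb, none of 22 rose, 15 fell, 9 of them past the fold threshold, and the median was -1.37. At a mean of at least 1 CPM the steps were clearer: the medians were 0.15, -0.49, -0.60 and -1.87 for 19, 13, 16 and 10 genes, and all 10 genes over 300 kb fell. These 10 were CACNA2D1, KCNIP1, KCNH8, KCNQ3, CACNA1C, KCNH5, KCNQ5, KCNMA1, CACNA1D and CACNA1A.

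Other protein-coding genes showed a like order. Their medians in the same 4 ranges were 0.09, -0.00, -0.24 and -1.10, and 37.1% of those over 300 kb fell past the fold threshold, against 40.9% of the channel genes of that span. At 1 CPM or more their medians were 0.06, -0.01, -0.25 and -1.18, and the channel medians at that level, given above, were lower from 30 kb upwards. Over 300 kb at that level, 39.6% of them fell past the fold threshold, against 60.0% of the 10 channel genes. Tested members were longer, with a median span of 72.0 kb against 32.5 kb. Across the 112 members the Spearman correlation of log2 fold change with span was -0.38, and -0.58 across the 58 at 1 CPM or more; across the other protein-coding genes it was -0.27 (n = 16365) and -0.30 (n = 12903). These correlations run across genes measured in the same 6 libraries, which are not independent replicates, and they are given as a description. With the summed length of exons in place of span the correlation across members was -0.14.

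Mean level tracked the change less than span did. The Spearman correlation with the mean level over the 6 libraries was -0.06 across the 112 members and 0.13 across the 58 at 1 CPM or more, and span and level were themselves nearly unrelated (0.02). It was -0.23 across the 112 members with the level taken from siControl alone, and -0.12 and -0.20 across other protein-coding genes with the mean and the siControl level. In the 41 members under 0.5 CPM the median log2 fold change was -0.54 (10 falls, 2 rises). It was -0.41 in the 36 members from 0.5 to 5 CPM (17 falls, 9 rises) and -0.18 in the 35 over 5 CPM (19 falls, 9 rises). Abundant channel genes were thus found in all outcomes: KCNN4, KCNK5 and KCNIP3 did not pass the test, KCNH3 and SCN4B rose, and KCNK1, CACNA1H and CACNA2D1 fell.

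The order by span also appeared inside the potassium family. Of 53 potassium genes of up to 100 kb, 13 rose and 14 fell, with a median log2 fold change of 0.05, whereas of 31 over 100 kb none rose and 19 fell, with a median of -1.10. In the KCNH genes the Spearman correlation with span was -0.71 (n = 8) and in the KCNK genes -0.69 (n = 11). It was -0.05 in the KCNA genes (n = 8), and 0.30 in the KCNQ genes (n = 5). Of the 12 potassium gene families with at least 3 tested genes, 8 had a negative and 4 a positive correlation, and many rest on few genes. The sodium genes of up to 100 kb (4 beta genes and SCN4A) all rose, and of the 9 longer ones 5 fell and none rose. Over all tested genes, the calcium channel genes did not follow this split. The median was -0.96 for the 4 of up to 100 kb (2 falls, no rise) and -0.77 for the 10 longer ones (6 falls, 2 rises). The correlation with span was -0.22 within the CACNA1 genes (n = 10) and -0.18 across the 14 calcium genes. CACNA1F and CACNA1S, among the shorter ones, averaged only 0.0581 and 0.0649 CPM. At 1 CPM or more the correlation was -0.55 across 10 calcium genes and -0.55 across 39 potassium genes.

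**Figure D1:**
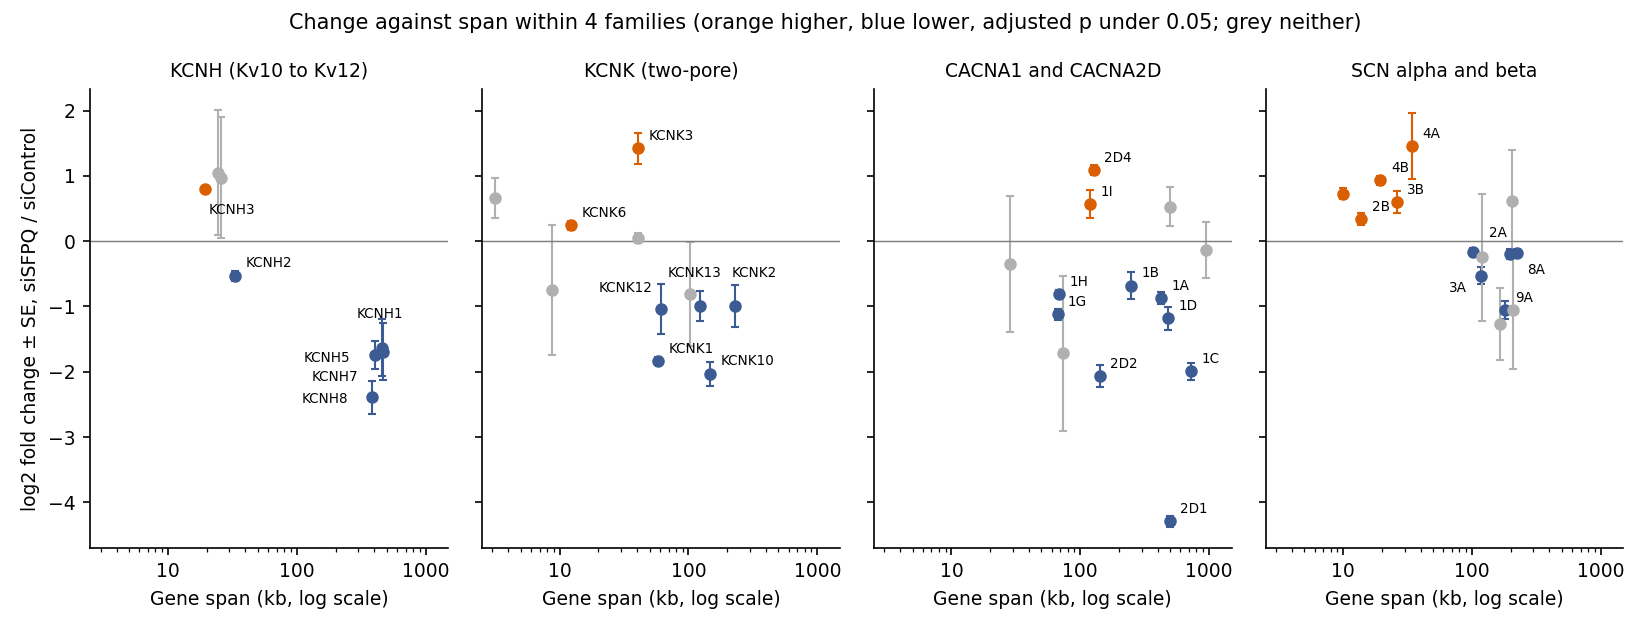
The log2 fold change with its standard error (vertical axis) against span (horizontal axis, kb, log scale) for the tested genes of 4 families, most of them labelled where the adjusted p was under 0.05; CACNA and SCN are dropped from the labels of the last panels. KCNH3 at 19.3 kb lies at 0.80 and the KCNH genes over 300 kb between -2.39 and -1.63, while the calcium channel genes lie mostly below 0 at all spans, with CACNA2D4 at 1.09 and CACNA2D1 at -4.29.

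Several genes stood outside this order. For example, KCNK1, KCNA4 and KCNA6, with spans of 58.4, 7.30 and 3.98 kb, fell by more than 1 on the log2 scale, and KCNS2 (5.90 kb, 15, 17 and 8 reads against 1, 6 and 1) had a log2 fold change of -2.28 ± 0.73 (adjusted p = 0.0102, and 0.0642 and 0.0651 without siSFPQ replicate 1 or 3). In the other direction, CACNA2D4 rose with a span of 127 kb, as did CACNA1I (119 kb) in the fit of all libraries though without siControl replicate 1 its adjusted p was 0.221, and KCNA2 (112 kb) did not pass the test. The 5 longest members with a mean of at least 0.5 CPM were KCNMA1, CACNA1C, KCNQ5, KCNAB1 and CACNA2D1; 4 of them fell, and KCNAB1 did not pass the test.

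Exons of 48 of the 112 tested members overlap those of another annotated gene, 40 of them on the opposite strand, a check added after the values were seen. The libraries were stranded, but the strand setting of the counting is not given in the sources used here. In the 64 members without such overlap, whose median span was 46.2 kb, 19 fell and 17 rose, shares near those of other protein-coding genes given above. Their median log2 fold change was 0.05 and the correlation with span was -0.44. In the 31 of them at 1 CPM or more the median was 0.05 and the correlation -0.40. Over all 58 members at that level these were -0.41 and -0.58. Past both thresholds, 12.5% of these 64 fell, against 4.91% of other protein-coding genes. CACNA2D1, KCNQ3, KCNK1 and KCNH5 are among those without overlap.

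The partners of these channels were followed in 40 related genes, of which 34 were tested. Of these, 12 fell (35.3%) and 10 rose (29.4%), shares not far from the 30.8% and 28.1% of other protein-coding genes. Past both thresholds, 9 fell (26.5%) and 2 rose (5.88%), against 4.91% and 3.28% of other protein-coding genes. The median log2 fold change was -2.04 for the 15 over 100 kb (10 falls, 2 rises) and 0.35 for the 19 shorter ones (2 falls, 8 rises). Other protein-coding genes had medians of -0.24 from 100 to 300 kb and -1.10 over 300 kb. Around the L-type calcium channel, the beta subunit genes CACNB2 (403 kb) and CACNB4 (266 kb), whose products bring alpha1 subunits to the membrane, fell by 2.04 and 2.15 on the log2 scale. The adaptor gene STAC (168 kb) had 1462, 1399 and 1369 reads against 207, 201 and 255 (-2.68 ± 0.08, adjusted p = 8.00e-24). The short CACNB3 (15.1 kb), with 2570, 2536 and 2421 reads against 2568, 2673 and 2697, did not pass the test (0.07 ± 0.04, adjusted p = 0.197).

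DPP10, an auxiliary subunit of the Kv4 channels that KCND3 and KCNIP1 also form, spans 1400 kb. It had 414, 434 and 420 reads in siControl and 36, 30 and 18 in siSFPQ, far apart (-3.91 ± 0.16, adjusted p = 2.58e-20). ABCC9, the sulfonylurea receptor that joins KCNJ8 in the vascular ATP-sensitive channel (145 kb), rose instead, with 33, 56 and 57 reads against 198, 192 and 234 (2.09 ± 0.18, adjusted p = 4.94e-12). ABCC8, the partner of KCNJ11, had a log2 fold change of 0.40 ± 0.19 and did not pass the test (adjusted p = 0.0939). Of the pacemaker channel genes, HCN4 (49.1 kb) rose by 1.19 on the log2 scale. Other long partners that fell past both thresholds included NALF1, of the sodium leak channel (-2.37 ± 0.10), although NALCN, the scarce pore gene of that channel (363 kb), rose from 0, 3 and 3 reads to 13, 10 and 6 (2.20 ± 0.86, adjusted p = 0.0348). Further falls were in FGF13 and FGF12, intracellular modulators of sodium channels (-2.13 ± 0.20 and -1.53 ± 0.13).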

How the data were processed

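Polyadenylated RNA was sequenced as paired reads from Illumina TruSeq stranded mRNA libraries. Per the study's methods and the submitters' processing notes, the authors checked reads with FastQC, aligned and counted them with STAR 2.7.9a on Ensembl GRCh38, and deposited raw counts per gene; trimming and the strand setting of the counting are not given in the sources used here. Names, spans and exons came from GENCODE release 44 on GRCh38 (99.7% of identifiers matched).

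The 29022 genes with at least 10 counts over the 6 libraries were fitted with edgeR 4.0.16 (R 4.3.3; TMM, quasi-likelihood test, no covariates), and p-values were Benjamini-Hochberg adjusted over all of them. Adjusted p-values quoted without a tool are from this test. In the text, rose and fell mean an adjusted p under 0.05; both thresholds mean, in addition, a log2 fold change over 1.5 or under -1.5. Normalised reads are counts divided by relative effective library size, and errors of log2 fold changes are standard errors (n = 3 per group). Family medians and correlations were taken from this fit.

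Members and lists were chosen with earlier results of these data known. Genes named in full were members past both thresholds at 1 CPM or more, the next 5 rises and falls, the largest low-level changes, the most abundant and longest members and those at 5 CPM or more that did not pass; others are named to complete a family, after their values were seen. The libraries are not repeats of one another: a chi-square per degree of freedom was 4.07 to 5.96 within groups. The study calls the replicates biological, but the labels name no separate cultures, so p-values measure the spread between these samples, which may be technical. Alternatives were other count filters, RLE factors, library size alone, DESeq2 1.42.0, protein-coding genes only, a replicate block, each library left out, other thresholds and measures of length and level. Some genes are not reported here by name.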

Additional observations from a re-analysis of the deposited data

How the results depend on the processing

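The counts of channel genes past each threshold and the medians and correlations stayed near the reported values under DESeq2, RLE factors, library size alone and protein-coding genes only; DESeq2 gave 18 rises and 38 falls in place of 20 and 46. Replicate numbers did not pair the libraries: the correlations of same-numbered deviations were -0.0251, 0.0697 and 0.0355, and a replicate block left 20 rises, 45 falls, 3 genes past both thresholds upwards and 16 downwards. Among the 112 members it changed 1 call, that of KCNJ4 (adjusted p = 0.0680). At a log2 threshold of 1, 8 members were called higher and 29 lower. With filterByExpr the potassium median was -0.23 and the correlation with span -0.48. With no filter they were -0.52 and -0.27, and the correlation with level was 0.04. At 1 CPM or more the calcium median was -0.99 and the correlations with span and level -0.58 and 0.13. The correlation with level was -0.23 when siControl libraries alone set the level, and exon length in place of span gave -0.14. Without exon overlap, a setting chosen after seeing the data, the potassium, calcium and sodium medians were 0.05, -0.35 and 0.47. That calcium value was the one of CACNA1F, at 0.0581 CPM, and the sodium set kept all 4 beta genes. The correlation with span was -0.44 in members without overlap, and -0.40 in those of them at 1 CPM or more. The cause of these shifts was not tested.

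With 1 library left out, the genes called higher ranged from 2 to 5 and those called lower from 15 to 17. Rises ranged from 17 to 21 and falls from 34 to 42. The potassium, calcium and sodium medians ranged from -0.37 to -0.23, -0.91 to -0.79 and -0.20 to 0.14; the sodium median was 0.14 without siControl replicate 2 and -0.01 without siSFPQ replicate 2. The correlations ranged from -0.41 to -0.35 with span and -0.10 to -0.01 with level. Of 507 values of the genes chosen by the naming rule, under all alternatives, 9 lost the test (3 of them for KCNV2), 3 gained it (KCNAB1, KCNIP3 and KCNN4) and none reversed. The depth limits the scarce members: of the 41 tested members under 0.5 CPM, 29 passed the test in neither direction and 12 passed it. The smallest change that could be detected was not measured, and a missed threshold does not show that a change was absent.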

Other observations

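Of 37 non-coding genes named after channel genes (antisense, divergent and overlapping transcripts and pseudogenes), 12 had no read and 14 were tested, of which 1 rose and 2 fell. KCNIP1-AS1, which lies on the opposite strand within KCNIP1, fell with it, from 13, 17 and 19 reads to 3, 4 and 7 (log2 fold change -1.79 ± 0.57, adjusted p = 0.0106, edgeR). Its exons overlap those of KCNIP1, and the strand setting of the counting is not given in the sources used here. KCNMB2-AS1 (411 kb) fell from 140, 113 and 176 reads to 65, 58 and 90 (-1.01 ± 0.19, adjusted p = 2.46e-05), whereas KCNMB2 itself had 5, 15 and 6 reads against 21, 16 and 22 and did not pass the test (1.17 ± 0.49, adjusted p = 0.0526). KCNC4-DT, the divergent transcript at the start of KCNC4, rose with that gene, from 12, 10 and 8 reads to 21, 25 and 31 (1.34 ± 0.42, adjusted p = 0.00846). KCNQ1OT1, the imprinted antisense RNA of KCNQ1, varied widely between siControl libraries, with 318, 497 and 137 reads, and had 376, 397 and 295 in siSFPQ (0.16 ± 0.21, adjusted p = 0.570).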
